A study of Mus musculus with 6 samples.

Results

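The LGI (leucine-rich glioma-inactivated) proteins and the receptors of the ADAM22 family were represented by 7 genes, the ligand genes Lgi1, Lgi2, Lgi3 and Lgi4 and the receptor genes Adam22, Adam23 and Adam11. They were taken by gene name from the 24935 genes of the deposited table, and each name matched a single row. All 7 were among the 17778 genes with a mean normalized count of at least 10. The family was selected on the differences in normalized read count between these same hyperoxia and air libraries, which were known from earlier results. The fold changes and p-values of its members are therefore a description of these libraries and not independent evidence.

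C57BL/6 pups and their dams were kept in room air or in 85% oxygen (hyperoxia) from postnatal day (P) 2 to P14. The left hippocampus was taken at P14, and 1 polyA-selected, strand-specific library was sequenced for each of 3 air-exposed and 3 hyperoxia-exposed mice. Whole hippocampus of pups of both sexes was used, and no source used here gives the litter or the sex of each mouse. Libraries are numbered 1 to 3 within each group as in the deposited columns, which do not name the animal. Air and hyperoxia mean the libraries of the columns so named. The sign of the mRNA differences is in doubt: for several genes, among them some named here, the study's own text gives the opposite direction to that of the deposited columns, and the sources used here do not settle which holds. If the column names were exchanged, every higher and lower printed here would be reversed, and the sizes of the log2 differences and the p-values would stay.

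LGI proteins are secreted ligands with a leucine-rich repeat part and an EPTP repeat part, and they bind the extracellular part of ADAM22, ADAM23 and ADAM11. These 3 receptors have the build of ADAM proteases but lack a working catalytic site, so they serve as adhesion molecules. LGI1 is released from neurons and joins ADAM22 on the postsynaptic side to ADAM23 on the presynaptic side. Inside the cell, ADAM22 binds the scaffold PSD-95 and its relatives, through which the complex is tied to AMPA receptors, and on axons the complex is found with Kv1 potassium channels. LGI1 mutations cause an inherited temporal lobe epilepsy, and antibodies to LGI1 cause a limbic encephalitis with memory loss.

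The sequences just upstream of the start sites are shown for the 4 members that had an entry in the RefSeq promoter table (build GRCm38.p6), among them Lgi1 and Lgi2, whose counts differed in opposite directions, and the receptor genes Adam22 and Adam23. Each run is 5′ to 3′ on the strand of the gene and stops before the first annotated exon base, and capitals mark GC boxes (GGGCGG on either strand). Lgi1 is shown at chr19:38264437-38264535 on the plus strand, Lgi2 at chr5:52566463-52566556 on the minus strand, Adam22 at chr5:8368161-8368410 on the minus strand and Adam23 at chr1:63445641-63445890 on the plus strand.
Lgi1: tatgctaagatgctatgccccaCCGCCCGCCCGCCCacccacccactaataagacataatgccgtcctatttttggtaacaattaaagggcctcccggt
Lgi2: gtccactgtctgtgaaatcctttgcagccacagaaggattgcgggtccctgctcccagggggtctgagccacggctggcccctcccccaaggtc
Adam22: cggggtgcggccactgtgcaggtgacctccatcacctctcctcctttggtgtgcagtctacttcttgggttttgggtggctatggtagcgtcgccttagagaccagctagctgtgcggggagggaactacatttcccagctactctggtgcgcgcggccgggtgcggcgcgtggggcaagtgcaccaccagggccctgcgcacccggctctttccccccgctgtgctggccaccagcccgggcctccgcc
Adam23: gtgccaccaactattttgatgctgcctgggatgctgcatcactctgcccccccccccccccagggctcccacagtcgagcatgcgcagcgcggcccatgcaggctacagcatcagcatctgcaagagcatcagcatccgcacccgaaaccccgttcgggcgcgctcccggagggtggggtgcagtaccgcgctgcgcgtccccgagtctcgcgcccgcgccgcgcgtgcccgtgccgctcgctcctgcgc

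The Lgi1 run held 3 overlapping GC boxes and the other runs held none. In the whole windows of 300 bases (250 before and 50 after the start), Lgi1 and Lgi2 each had a GC box (that of Lgi2 in bases not printed), against 35.7% of 32851 promoter windows. GC content was 54.0% for Lgi1, 73.3% for Lgi2, 66.3% for Adam22 and 70.0% for Adam23, against a median of 52.7% over all windows. None of these 4 windows held the CRE core TGACGTCA, the CRE part TGACG (which the core contains), the AP-1 site TGACTCA or the E-box CACGTG on either strand. In the same order, these occurred in 1.79%, 20.8%, 5.20% and 7.15% of all windows.

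Counts are given as normalized read counts, that is, reads per gene divided by 1 size factor per library. Hyperoxia was compared with air by limma on log2 of the normalized count plus 1, which understates changes of low counts, and p-values were adjusted over all 17778 genes (Benjamini-Hochberg). A gene was called at an adjusted p under 0.05. For 1 gene and 3 mice in each group, the smallest p of a two-sided exact permutation test is 0.10. Whether replicates came from separate litters is not stated, so the p-values measure the spread between these libraries.

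The 7 genes did not move together. Lgi1, Lgi3 and Adam11 were lower in hyperoxia, Lgi2 and Adam22 were higher, and Adam23 and Lgi4 were not called. Thus 5 of 7 genes were called, 2 higher and 3 lower, where 30.5% of all genes tested were called, 14.9% higher and 15.6% lower. The counts were also 2 and 3 by edgeR (30.9% of all genes, 15.6% higher and 15.3% lower) and by DESeq2 (31.6%, 16.5% higher and 15.1% lower). They were 1 higher and 3 lower after a correction for transcript length and GC content (34.7%, 14.9% higher and 19.9% lower), and 3 higher and 3 lower without hyperoxia library 2 (43.7%, 21.6% higher and 22.1% lower). The groups of the same 5 genes did not overlap, 2 with hyperoxia above and 3 with it below, as was the case for 46.1% of all genes tested (22.3% above and 23.8% below). Since the family was selected on this comparison, nothing is read from these shares. The median log2 fold change was 0.03 for the 7 genes and −0.01 for all genes tested.

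**Figure D1:**
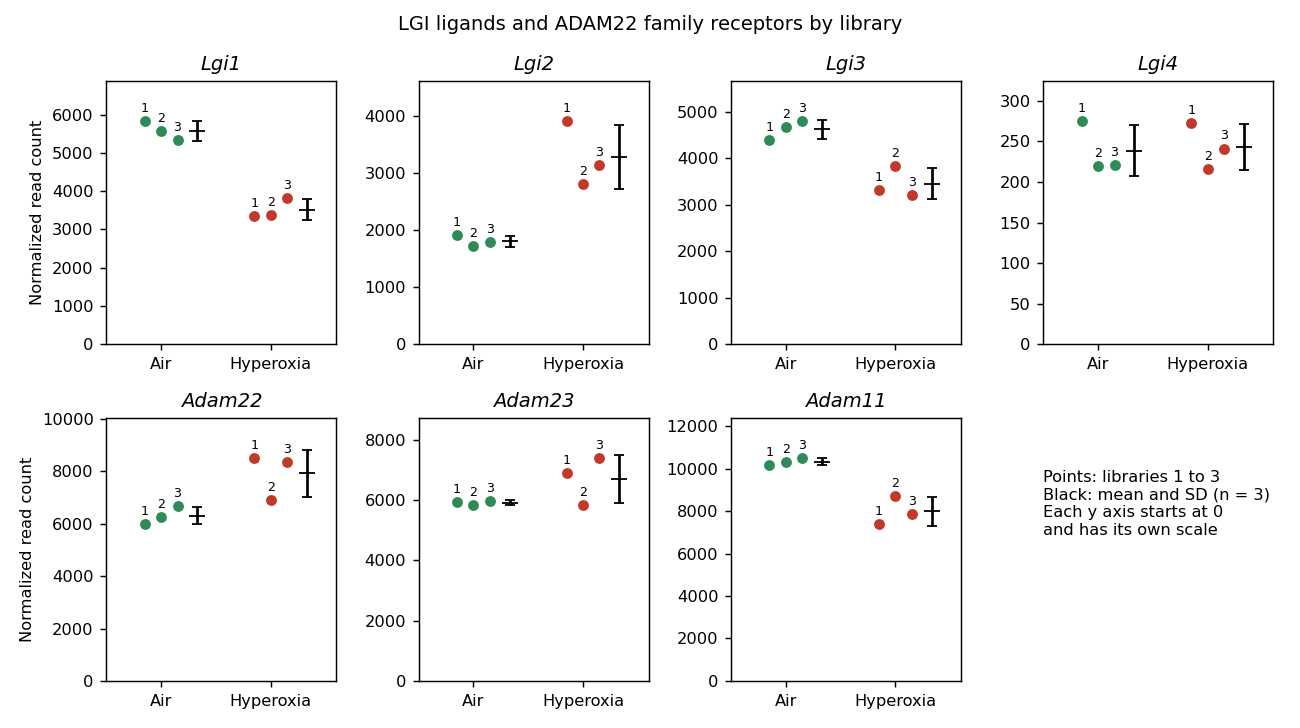
Normalized read count (y axis, from 0, own scale per gene) of each gene in the air (green) and hyperoxia (red) libraries, with library numbers and the mean and SD (n = 3). The red points lie below the green points for Lgi1, Lgi3 and Adam11, above them for Lgi2 and Adam22, and among them for Lgi4, and for Adam23 only hyperoxia library 2 lies among the air points.

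Lgi1 (ENSMUSG00000067242.11) lies on the plus strand of chromosome 19 (38264536 to 38312214) and encodes the ligand that joins ADAM22 to ADAM23 across the synapse. Its normalized count was 5826, 5560.1 and 5325 in the air-exposed mice (libraries 1, 2 and 3, in this order throughout), against 3356, 3375 and 3821 after hyperoxia. The highest hyperoxia library was well under the lowest air library. Lgi1 fell by 36.9%, which is −0.66 on the log2 scale with a standard error of 0.08 and an adjusted p of 6.8e-04 by limma. This sign, like the others, rests on the column names. The study's own text describes both LGI1 protein, which it gives as lower in hyperoxia on average, and Lgi1 mRNA as not different between the groups. For the mRNA it gives a smaller difference than here, of the opposite sign. An exchange of the column names would leave this difference in size. Hyperoxia library 3, the highest of its group for Lgi1, also had the highest summed count of dentate granule cell markers in the group (13008, against 8170.4 and 8089 in libraries 1 and 2), and the part of this in the Lgi1 value was not tested.

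Lgi2 (ENSMUSG00000039252.11), on the minus strand of chromosome 5 (52533517 to 52566462), encodes a second neuronal ligand of the family, known from an inherited epilepsy of young dogs. Its normalized count was 1906, 1717 and 1791 in air, against 3903, 2807 and 3133 after hyperoxia. Every hyperoxia library was above every air library, and library 1 was the highest. Air-exposed mice averaged 1805 ± 95.4 and hyperoxia-exposed mice 3281 ± 563 (SD, n = 3 each). This 1.80-fold difference, 0.85 on the log2 scale with a standard error of 0.11 and an adjusted p of 0.0011 by limma, was the largest in the family in this fit, while after the length and GC correction that of Lgi1 was larger. The coefficient of variation was 5.29% in air and 17.2% in hyperoxia.

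Lgi3 (ENSMUSG00000033595.6), a ligand gene on the plus strand of chromosome 14 (70530685 to 70538324), had normalized counts of 4396, 4676 and 4803 in air. The hyperoxia libraries had 3318, 3832 and 3217, all under the air libraries, with library 2 the nearest to them. The averages of 4625 ± 208 and 3456 ± 329.9 (SD, n = 3 each) differed by −0.42 on the log2 scale, with a standard error of 0.08 and an adjusted p of 0.0053 by limma.

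Lgi4 (ENSMUSG00000036560.14), on the plus strand of chromosome 7 (31059342 to 31070935), encodes the ligand that Schwann cells use in myelination of peripheral nerve. It had the lowest counts of the family, from 191 to 309 reads per library. The normalized count was 275, 219.8 and 221 in air and 273, 216 and 241 in hyperoxia, and the groups overlapped over nearly their whole range. The difference was 0.03 on the log2 scale, with a standard error of 0.13 and an adjusted p of 0.88 by limma, and its sign changed when single libraries were left out. Of its exon bases, 2059 are shared with Fxyd3 on the other strand, which had a mean normalized count of 15.5.

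Among the receptors, Adam11 (ENSMUSG00000020926.16) had the most reads. It lies on the plus strand of chromosome 11 (102761439 to 102780262) and encodes a receptor known from the basket cell terminals of the cerebellum. Its normalized count was 10166, 10327 and 10508 in air and 7377, 8690.4 and 7882 in hyperoxia, without overlap. The averages of 10333 ± 171 and 7983 ± 663 (SD, n = 3 each) differed by −0.38 on the log2 scale, with a standard error of 0.08 and an adjusted p of 0.0065 by limma.

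Adam22 (ENSMUSG00000040537.17), on the minus strand of chromosome 5 (8072352 to 8368160), encodes the postsynaptic receptor of LGI1. Its normalized count was 6006, 6260.2 and 6659.8 in air and 8514, 6893 and 8369 in hyperoxia. All hyperoxia libraries were above all air libraries, but hyperoxia library 2 stood much closer to air library 3 than to the other hyperoxia libraries. The difference was 0.32 on the log2 scale, with a standard error of 0.09 and an adjusted p of 0.026 by limma. This call was lost after the length and GC correction, where the difference was 0.02 (adjusted p = 0.77 by limma), in limma without a mean-variance trend (adjusted p = 0.077), and without any 1 of the 3 air libraries or of hyperoxia libraries 1 and 3 (0.27 to 0.36, adjusted p from 0.051 to 0.11), over a range of 4.2e-04 to 0.77 for all 16 alternatives.

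Adam23 (ENSMUSG00000025964.15), on the plus strand of chromosome 1 (63445891 to 63596276), encodes the presynaptic receptor. The air libraries were close together at 5934, 5827 and 5978, while hyperoxia libraries 1 and 3 had 6900.2 and 7406 and library 2 had 5827. The difference of 0.18 on the log2 scale, with a standard error of 0.09 and an adjusted p of 0.17 by limma, was not called. Without hyperoxia library 2 it was 0.27 (adjusted p = 0.0035), and after the length and GC correction it was −0.01 (adjusted p = 0.85), the ends of the range over the alternatives.

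The calls of Lgi1, Lgi2, Lgi3 and Adam11 held under all 16 alternatives, which included edgeR and DESeq2 on the recovered reads. Leaving out each library in turn kept the log2 fold change between −0.73 and −0.63 for Lgi1, between 0.72 and 0.96 for Lgi2, between −0.50 and −0.37 for Lgi3 and between −0.44 and −0.32 for Adam11. The length and GC correction moved Lgi1 to −0.93 and Lgi2 to 0.69. Adam22 and Adam23 came near 0 under this correction. The longest transcript, whose length entered the correction, has 9245 bases for Adam22, 7780 for Lgi1, 6456 for Lgi2, 6426 for Adam23, 5102 for Adam11, 4037 for Lgi4 and 3174 for Lgi3. GC content of the longest transcript was 44.7% for Lgi1, 44.8% for Adam22, 47.2% for Adam23 and 50.3% for Lgi2, and it was 57.2% for Lgi3 and 60.05% for Adam11.

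Levels of different genes were compared per length, as the normalized count per kb of merged exons. In air the order was Adam11 at 1823 ± 30.1, Lgi3 at 1186 ± 53.4, Lgi1 at 491 ± 22.1, Adam22 at 439.7 ± 23.0, Adam23 at 330.2 ± 4.35, Lgi2 at 276 ± 14.6 and Lgi4 at 52.0 ± 6.89 per kb (SD, n = 3 each). In hyperoxia Adam11 and Lgi3 still led, at 1408 ± 117 and 886 ± 84.6 per kb, followed by Adam22 at 552 ± 62.5 and Lgi2 at 503 ± 86.2, whose libraries overlapped. Adam23 at 375 ± 45.0 and Lgi1 at 309.8 ± 23.2 per kb came next and overlapped too, and Lgi4 was last at 53.1 ± 6.22 per kb. By these group averages Lgi1 stood the third of 7 in air (the fourth with the longest annotated transcript as the length) and the sixth in hyperoxia with either length.

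Within the ligands, the level per kb of Lgi2 divided by that of Lgi1 was 0.569, 0.537 and 0.585 in air, against 2.02, 1.45 and 1.43 after hyperoxia. Lgi1 was the more abundant of the pair in every air library and Lgi2 in every hyperoxia library. With the longest annotated transcript as the length, the ratios were 0.372 to 0.405 in air and 0.988 to 1.40 in hyperoxia, so that the levels of the pair were then about equal in hyperoxia libraries 2 and 3. The share of Lgi2 in the summed LGI level averaged 13.8% ± 0.777 in air, against 28.6% ± 4.34 after hyperoxia, and that of Lgi1 24.5% ± 1.29, against 17.7% ± 1.87 (SD, n = 3 each). Lgi3 held the largest share in all 6 libraries, from 47.2% to 60.9%.

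Among the receptors, the level per kb of Adam22 divided by that of Adam11 was 0.233, 0.2395 and 0.2504 in air and 0.456, 0.313 and 0.4195 in hyperoxia. Adam22 per kb was 0.816, 0.891 and 0.9897 times Lgi1 in air and 2.01, 1.62 and 1.73 times Lgi1 in hyperoxia, so that the receptor transcript was the more abundant of the pair in each hyperoxia library. The summed LGI level ran from 1993 to 2023 per kb in air and from 1694 to 1804 per kb in hyperoxia, and the summed receptor level from 2543 to 2652 and from 2279.97 to 2387 per kb. Neither sum overlapped between the groups with merged exons as the length, but with the longest transcript the receptor sums did, at 3566 to 3710.2 and 3356 to 3603 per kb.

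**Figure D2:**
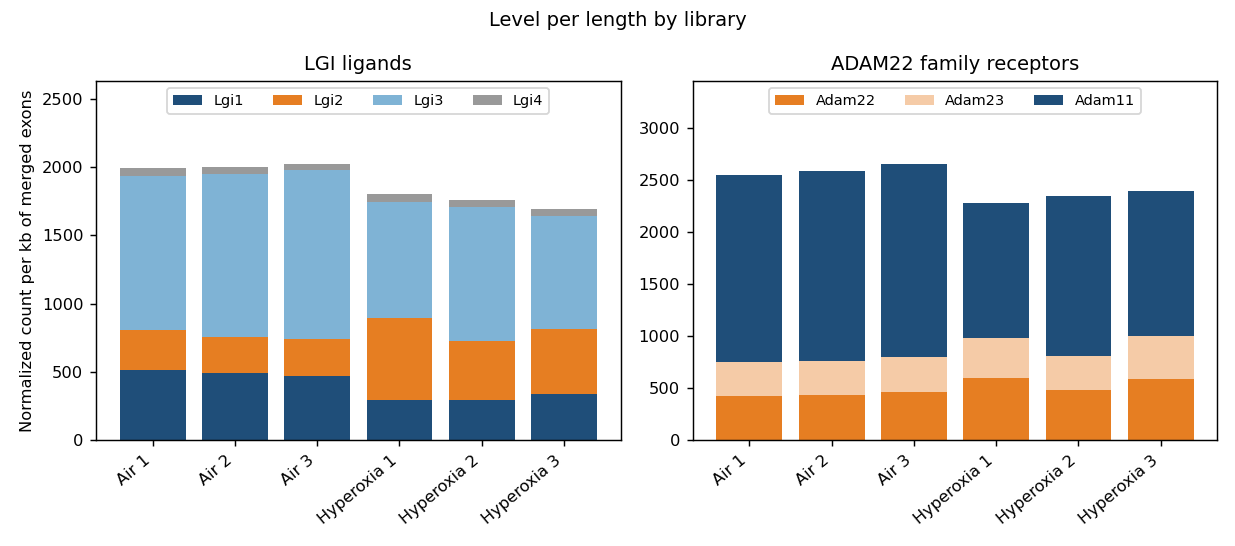
Normalized count per kb of merged exons (y axis, from 0) in each library, stacked by gene for the LGI ligands (left) and the ADAM22 family receptors (right). The Lgi2 part is larger and the Lgi1 part smaller in every hyperoxia library than in any air library, and Lgi3 and Adam11 make up the largest parts throughout.

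Tissue markers are given beside these values, since RNA of whole hippocampus was measured and fewer cells of a type cannot be told apart from less RNA per cell. Markers of dentate granule cells, of CA1 and CA3 pyramidal cells and of interneurons were detected in all 6 libraries. The marker counts given here and below stand beside 14.9% of all genes tested called higher and 15.6% called lower. Some of the counts are near these shares, and the lists are short. Of the dentate granule cell markers (Prox1, Dsp, C1ql2, Tdo2, Lct), 4 of 5 were called lower, with summed counts of 14427 to 14711 in air and 8089 to 13008 in hyperoxia. Of the CA3 markers 3 of 4 were called lower (5334 to 5892 and 3604 to 4841), and of the CA1 markers 1 of 5 was called, higher (21901 to 22662 and 19241 to 23594). Dentate granule and CA3 cells are known for strong Lgi1 expression, and the part of these cells in the Lgi1 value was not tested.

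Of the 7 interneuron markers, 1 was called higher and 1 lower, with sums of 22633 to 26102 in air and 20815 to 27594 in hyperoxia. Of the 6 oligodendrocyte markers 5 were called lower (211426 to 321844 and 144727 to 177382), and of the 3 precursor markers 2 were called higher (10465 to 11510 and 12110 to 13744). Of the 5 thalamus markers 3 were called higher (2911 to 3065 and 3581 to 4649), and of the 5 neocortex markers 2 (7660.4 to 8563 and 8357 to 11408). Astrocyte markers had 2 of 5 higher and 1 lower (56925 to 58695 and 49079 to 57160.3), microglia markers 1 of 4 higher (7972 to 8081 and 8695 to 9536), and endothelial markers 2 of 4 higher (4398 to 4853 and 5491 to 6411). Choroid plexus markers had none of 4 called, and their sum ran from 451 to 8055 in hyperoxia, highest in library 3, against 524 to 1391 in air. General neuron markers had 2 of 5 higher and 3 lower (158492 to 166662 and 141437 to 152413). The part of these markers in the values of the LGI and ADAM22 family genes was not tested.

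The other genes of the pathway were described from lists of 40 genes, of which 38 were tested. Of these, 5 were called higher and 13 lower, where 14.9% of all genes tested were called higher and 15.6% lower. The median log2 fold change of the pathway genes was −0.12, against −0.01 for all genes tested. These directions too rest on the column names, and the study's own text gives the opposite sign for the PSD-95 gene and for Gria1. All 4 MAGUK scaffold genes, whose proteins bind the end of ADAM22, were called, in both directions. Dlg1 (SAP97) averaged 2031 ± 117 in air, against 3006 ± 482 after hyperoxia (SD, n = 3 each), a difference of 0.55 on the log2 scale (limma adjusted p = 0.0053). Dlg2 (PSD-93) averaged 13930 ± 403 and 19211 ± 1807 (SD, n = 3 each), a change of 0.46 (limma adjusted p = 0.0039). The changes were −0.34 for Dlg3 (SAP102; limma adjusted p = 0.012) and −0.33 for Dlg4 (PSD-95; limma adjusted p = 0.019), and these calls held under 14 and 11 of the 16 alternatives.

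Of 8 genes of AMPA receptor subunits and their auxiliary TARPs, 1 was called higher and 2 lower. Gria4 was at 0.50 (limma adjusted p = 0.0038), Gria1 at −0.62 (limma adjusted p = 0.0041) and Cacng8, the gene of a hippocampal TARP, at −0.57 (limma adjusted p = 0.0079). Of 7 genes of the axonal Kv1 channel complex, Kcnab2, which encodes a beta subunit, was at −0.70 (limma adjusted p = 5.4e-04) and Kcna4 at −0.48 (limma adjusted p = 0.020, called under 13 of the 16 alternatives). Kcna2 was at 0.28 (limma adjusted p = 0.045), a call that held under 9 of the 16 alternatives. Kcna1 had a difference of 0.74 but was not called (limma adjusted p = 0.060), with averages of 852 ± 199 and 1475 ± 557 (SD, n = 3 each).

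Of 6 genes of 14-3-3 proteins, which bind phosphorylated ADAM22, 3 were called lower and none higher. Ywhah was at −0.66 (limma adjusted p = 9.98e-04), Ywhae at −0.33 (limma adjusted p = 0.013) and Ywhaz at −0.30 (limma adjusted p = 0.022), and the values of the other 3 ran from −0.21 to −0.06. The calls of Ywhae and Ywhaz each held under 12 of the 16 alternatives. A list of 4 genes held Nogo receptor genes and the co-receptor gene Lingo1, and the product of Rtn4r has been reported to bind LGI1. Rtn4r was called lower at −0.42 (limma adjusted p = 0.015, called under 13 of the 16 alternatives) and Rtn4rl1 at −0.53 (limma adjusted p = 0.0034). Rtn4rl2 (−0.31, limma adjusted p = 0.075) and Lingo1 (0.06, limma adjusted p = 0.68) were not called.

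**Figure D3:**
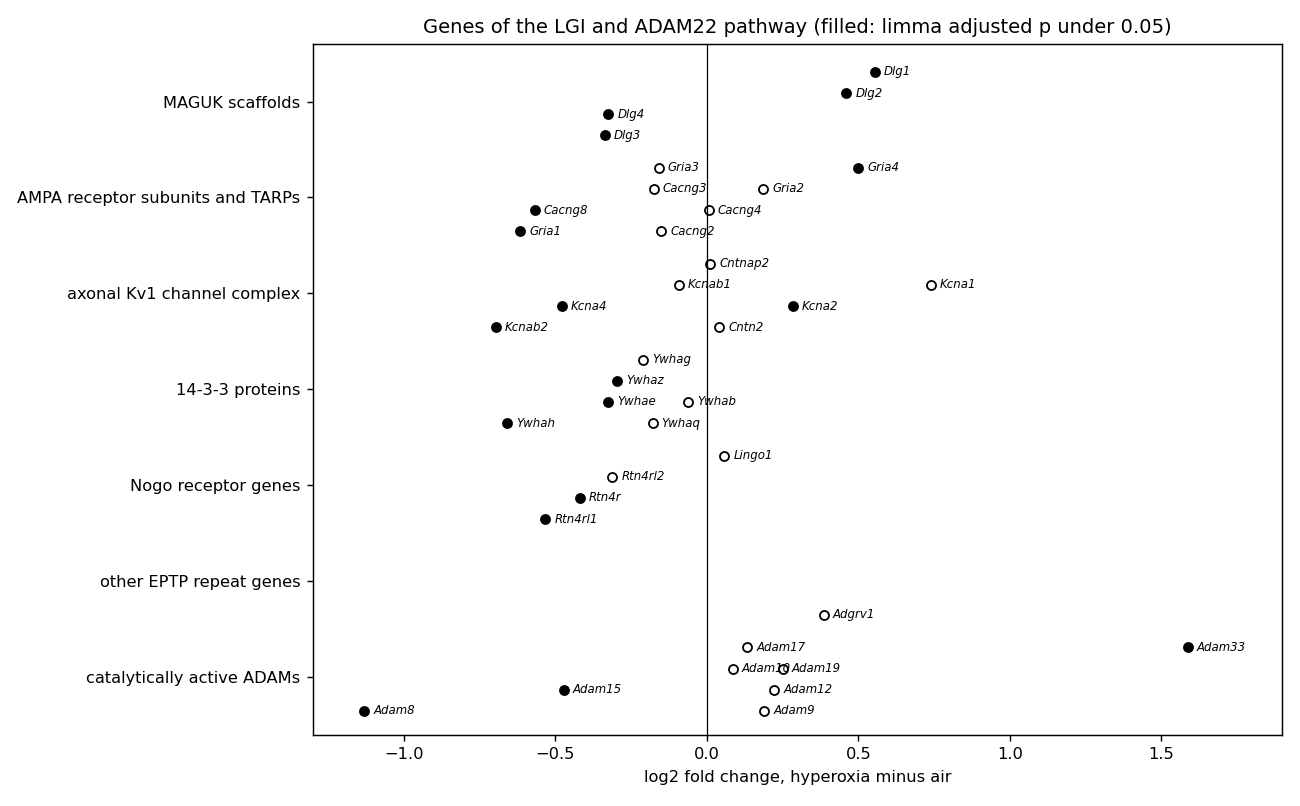
Log2 fold change (x axis, hyperoxia minus air) of the tested genes of 7 pathway lists (rows), 1 point per gene, filled where the limma adjusted p was under 0.05. Filled points lie on both sides of 0 for the MAGUK scaffolds, the AMPA receptor list, the Kv1 list and the catalytically active ADAMs, and only below 0 for the 14-3-3 and Nogo receptor genes.

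The genes most like Lgi1 and Lgi2 over the 6 libraries were sought among 6522 other genes with a mean normalized count of at least 1000, by Pearson's r of the log2 values. The points share their libraries and the group difference, so the values are a description. Hnrnpd (r = 0.999), Arpc2 (0.998) and Camk2b (0.998) were nearest to Lgi1. They encode an RNA-binding protein, a subunit of the actin-nucleating complex and a calcium/calmodulin-dependent kinase subunit, and had log2 fold changes of −0.34, −0.57 and −0.57. Arhgef10l (r = 0.999), Prkar2b (0.997) and Pcdh10 (0.996) were nearest to Lgi2. Prkar2b encodes a regulatory subunit of protein kinase A and Pcdh10 a protocadherin, and the log2 fold changes of the 3 genes were 0.26, 0.64 and 0.66.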

How the data were processed

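The members, lists and tests were chosen with earlier results of these data known. Total RNA of the left hippocampus was sequenced as paired ends on an Illumina NextSeq from 3 air-exposed and 3 hyperoxia-exposed mice. The deposited signal is a read count per gene, scaled by the authors with 1 size factor for each library (DESeq2 by its name). The submitters' processing notes name FastQC, STAR 2.5.3a, HTSeq and DESeq2. For the genome build and the strand setting of the counting, the notes and methods used here give no entry. A second deposited table holds the fold changes and p-values of the authors' own comparison and was not used.

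Divided by what 1 read is worth, all values came within 0.01 of whole numbers, which gave back 30384052 to 38746972 reads on genes per library (members: 191 to 10795 reads). Replicate pairs differed by more than sampling noise (chi-square per gene 6.54 to 47.2), most for the pairs with hyperoxia library 2, so no library was counted as a repeat. The first principal component held 52.7% of the variance.

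Genes with a mean of at least 10 were tested on log2 of the value plus 1 by limma-trend (limma 3.58.1 in R 4.3.3), hyperoxia minus air, after a test on simulated data. The simulation changed 200 genes, fewer than the 5425 called here, so it does not measure the error of the calls in these libraries. As alternatives, the pseudocount was set to 0.5 or 5, the filter was dropped or raised to 50, and quantile normalization, TMM scaling, a fit with no trend, edgeR 4.0.16 and DESeq2 1.42.0 on the recovered reads (5501 and 5611 genes called), a length and GC correction (mgcv 1.9.3, 17735 genes) and fits without each library were run. Positions, lengths and GC content came from GENCODE release M21 on GRCm38, which held 99.7% of the gene identifiers. Where a symbol had several rows (Dlg2), the row with the highest mean was used. Named were all members, called pathway genes, and the 3 genes most correlated with Lgi1 and with the other member of largest change; other genes named were chosen after their values were seen. Groups of 3 are too small for a test of single outlying libraries. Tables were handled in Python 3.11.15 with pandas 2.3.3.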

Additional observations from a re-analysis of the deposited data

How the results depend on the processing

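Over the 16 alternatives, 3 members stayed called lower (Lgi1, Lgi3 and Adam11) and Lgi2 stayed called higher. The count of members called higher, 2 with all libraries, was 1 in limma without the trend and 1 after the length and GC correction, and 1 to 3 with each library left out. Adam22 was then at 0.32 and 0.0243 on the log2 scale and was not called, and it was 0.27 to 0.42 with each library left out, where it was called only without hyperoxia library 2. Adam23 changed sign after the length and GC correction (−0.0148), and was 0.10 to 0.27 with each library left out, called without hyperoxia library 2. Lgi4 changed sign under quantile normalization (−0.0158), and was −0.054 to 0.14 with each library left out. Over all genes, 5425 were called, and 3056 to 7771 with each library left out (3056, 3083 and 3375 without air library 1, air library 2 and hyperoxia library 1). Of the pathway genes 18 were called, and 11 (without air library 2) to 26 with each library left out. The length and GC correction lowered the share of higher calls from 48.7% to 42.8%. With the longest transcript as the length, the share of Adam23 in the summed receptor level in air moved from 12.7% to 25.4%, so orders between receptors rest on the length used. By group average, Lgi1 was the sixth of 7 in hyperoxia with either length. In hyperoxia library 3, however, Lgi1 was slightly above Lgi2 with the longest transcript (491 against 485 per kb). The cause of these shifts was not tested. No paired analysis was run because no label matches an air animal to a hyperoxia animal.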

Other observations

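ADAM proteases with a working catalytic site were set beside the catalytically inactive ADAM22 family. Of 9 such genes 8 were tested, and 1 was called higher and 2 lower. Adam8, which is expressed by immune cells including microglia, had normalized counts of 222, 221 and 267 in air and 111, 95.1 and 116 in hyperoxia, without overlap. The difference was −1.13 on the log2 scale, with a standard error of 0.14 and an adjusted p of 8.1e-04 by limma. Adam15 averaged 3626 ± 153 in air, against 2628 ± 363 after hyperoxia (SD, n = 3 each), a difference of −0.47 (limma adjusted p = 0.0067). Adam33 was low, at 27.3, 22.4 and 15.4 in air and 67.2, 71.3 and 58.9 in hyperoxia, and its difference of 1.59 on the log2 scale, with a standard error of 0.25 and an adjusted p of 0.0020 by limma, is understated by the pseudocount.

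Adam10 and Adam17, the main shedding proteases of the brain, were at 0.09 (limma adjusted p = 0.49) and 0.13 (limma adjusted p = 0.23) and were not called. Adgrv1, a receptor gene with EPTP repeats like those of the LGI proteins, had a difference of 0.38 (limma adjusted p = 0.18). Tspear and Adam28 were under the minimum count and were not tested.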
